A study of Danio rerio with 14 samples.

Results

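Transcript counts of 6 pigment cell genes were followed in zebrafish embryos across genotype and dioxin exposure. They were taken by Ensembl gene ID from the 32105 genes that each of the 14 libraries lists: the iridophore gene pnp4a (ENSDARG00000057575) and the melanophore genes mitfa (ENSDARG00000003732), tyr (ENSDARG00000039077), dct (ENSDARG00000006008), tyrp1b (ENSDARG00000056151) and pmelb (ENSDARG00000033760). The last of these was picked under the name pmela, but the gene table used here calls this ID pmelb and gives pmela to another ID, ENSDARG00000091298, whose values are set beside it. The place of pmelb among the melanophore genes follows the name pmela. Whether pmelb is expressed in melanophores or only in the eye was not checked. All 6 genes passed the filter on low counts. The choice used gene names and no measured value, and the genes were chosen with earlier results of these libraries known.

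RNA was taken from embryos at 72 h post-fertilization (hpf), all labelled with the strain Tupfel longfin. Wild-type embryos and embryos of an ahrra-null line, made with zinc finger nucleases, were bathed at 6 hpf for 1 h in carrier (0.01% DMSO) or in 2 nM TCDD, then rinsed and raised in clean medium. The protocol isolates total RNA from embryos and names no dissected tissue, so signal from skin, eye and all other tissues is summed. There were 3 libraries of wild type with DMSO (replicates 2, 3 and 4), 3 of wild type with TCDD (replicates 6, 7 and 8), 4 of ahrra-null with DMSO (replicates 9 to 12) and 4 of ahrra-null with TCDD (replicates 13 to 16). TCDD is a dioxin that activates the aryl hydrocarbon receptor (AHR), and ahrra encodes a repressor of that receptor. The labels give neither the clutch, nor the number of embryos behind a library, nor the nature of the ahrra lesion. The p-values therefore reflect the spread among these samples alone, which may be technical, and genotype cannot be told apart from family or clutch.

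Zebrafish larvae carry 3 kinds of pigment cell, all from the neural crest. Melanophores are black because they fill melanosomes with melanin, iridophores reflect light from stacks of purine crystals, and xanthophores are yellow from pteridines and carotenoids. Mitfa is the transcription factor without which zebrafish melanophores do not form, and it activates genes of melanin synthesis. Tyr catalyses the first and limiting step from tyrosine, Dct and the Tyrp1 proteins act on later intermediates, and Pmel forms the fibrils on which melanin is laid down. pnp4a encodes a purine nucleoside phosphorylase of the purine salvage pathway that is used as an iridophore marker. The retinal pigment epithelium, which is not of crest origin, expresses the melanin genes too. In RNA from whole embryos, fewer pigment cells and less RNA per pigment cell cannot be told apart.

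Total counts ran from 16.9 to 23.1 M per library, and values below are counts per 1 M of library size (CPM), scaled by TMM. Over the 14 libraries the read counts behind a value ran from 554 to 1148 for pnp4a, 62 to 132 for mitfa, 228 to 457 for tyr, 2694 to 4267 for dct, 5896 to 8884 for tyrp1b and 1612 to 2775 for pmelb. mitfa thus rests on the fewest reads. All 6 transcripts on the list of AHR readout genes rose with TCDD in both lines, with a median log2 fold change of 4.22 in wild-type and 4.90 in null embryos. The targeted transcript, ahrra, measured 0.612 to 1.39 CPM in wild type with DMSO, 14.1 to 20.5 with TCDD, 0.879 to 1.42 in ahrra-null with DMSO and 21.1 to 54.5 with TCDD. These levels were not lower in the null line, and a nuclease lesion need not lower a transcript, so they do not check the genotype labels. One ahrra-null TCDD library, replicate 15, had the lowest CYP1A1 of its group, 465.4 CPM against 1057 CPM in the nearest of the others, and none of the 6 pigment genes lay apart from its group there. Log2 fold changes are given with an approximate SE, and adjusted p-values are Benjamini-Hochberg values from edgeR's quasi-likelihood test over all 21606 genes tested. A gene is said to rise or fall where the adjusted p was under 0.05.

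pnp4a was called in more comparisons than any other of the 6 genes. It fell with TCDD in wild-type embryos, and it stood higher in ahrra-null than in wild-type embryos under both exposures. It measured 45.7, 39.3 and 45.8 CPM in wild type with DMSO and 31.0, 30.1 and 29.8 CPM in wild type with TCDD. In ahrra-null it measured 50.2, 56.7, 59.4 and 52.5 CPM with DMSO and 50.9, 53.3, 53.3 and 51.9 CPM with TCDD. Every wild-type TCDD library lay below every wild-type DMSO library, and every wild-type library lay below every ahrra-null library. Inside the null line the TCDD libraries fell wholly within the range of the DMSO libraries.

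**Figure D1:**
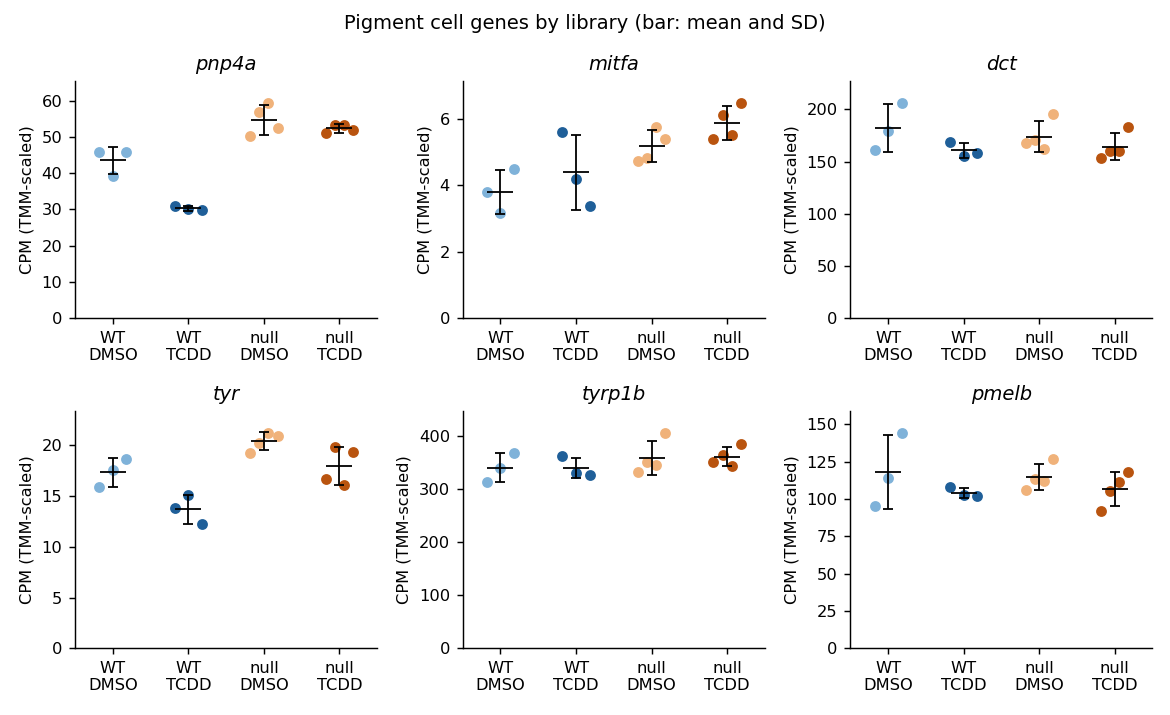
CPM (linear axis from 0) of the 6 pigment genes in each of the 14 libraries, 1 panel a gene; points are libraries, and the bar and whiskers are the group mean and SD (n = 3 in wild type, 4 in ahrra-null). pnp4a stands near 30 CPM in wild type with TCDD (29.8 to 31.0) and at or above 50.2 CPM in every ahrra-null library, while dct, tyrp1b and pmelb overlap across the 4 groups.

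Group means of pnp4a were 43.6 ± 3.73 CPM (SD, n = 3) and 30.3 ± 0.664 (n = 3) in wild type with DMSO and with TCDD, and 54.7 ± 4.14 (n = 4) and 52.4 ± 1.17 (n = 4) in ahrra-null. With TCDD in wild type the transcript fell by 0.52 ± 0.07 on the log2 scale, to 0.696 of its DMSO level (95% interval −0.67 to −0.37, adjusted p = 0.000171), and it ranked 22 by p among all genes tested. In ahrra-null the TCDD difference was −0.06 ± 0.06 (95% interval −0.19 to 0.06, adjusted p = 0.769). Against wild type, the ahrra-null level was 1.25 times as high with DMSO (log2 difference 0.33 ± 0.07, adjusted p = 0.00094) and 1.73 times as high with TCDD (0.79 ± 0.07, adjusted p = 2.12e-08, rank 27).

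The difference between the TCDD effects of both lines was tested by the interaction. For pnp4a it was 0.46 ± 0.09 (95% interval 0.27 to 0.65, unadjusted p = 5.15e-05, adjusted p = 0.28). That p ranked 3 of all genes, where edgeR called 0 of 21606 (0%) and 1117 (5.17%) had an unadjusted p under 0.05. DESeq2 called 8 genes for the interaction, pnp4a among them (adjusted p = 0.0382), and limma voom called 6. The 3 genotype and wild-type TCDD calls of pnp4a held in every alternative run, each with 1 library left out included, while the interaction was called under DESeq2 alone, with adjusted p up to 0.864 elsewhere. The difference between the lines in the TCDD response of pnp4a thus missed the threshold with edgeR.

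Of the relatives of pnp4a, pnp6 was tested and passed in no comparison. pnp6 (ENSDARG00000040942), another purine nucleoside phosphorylase by its symbol, measured 16.4 to 19.8 and 17.7 to 20.4 CPM in wild type with DMSO and TCDD, and 13.7 to 20.2 and 15.1 to 17.9 CPM in ahrra-null. Its TCDD difference in wild type was 0.11 ± 0.12 (adjusted p = 0.913). Without ahrra-null DMSO replicate 9 it was lower in ahrra-null with DMSO (−0.29, adjusted p = 0.0333), against −0.15 with all libraries (adjusted p = 0.357). pnp4b (ENSDARG00000029230) had only 2 to 15 reads a library and was not tested. How reads that match several copies were counted is not stated in the sources used.

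mitfa, the melanophore regulator, was higher in ahrra-null than in wild-type embryos with DMSO, on few reads and close to the threshold. It measured 3.79, 3.16 and 4.48 CPM in wild type with DMSO and 5.60, 4.19 and 3.37 CPM with TCDD, against 4.73, 4.84, 5.77 and 5.40 CPM in ahrra-null with DMSO and 5.41, 6.11, 5.52 and 6.49 CPM with TCDD. All 4 ahrra-null DMSO libraries lay above the wild-type DMSO libraries. With TCDD, wild-type replicate 6 lay inside the ahrra-null range and the other wild-type libraries lay below it. The log2 difference between the lines was 0.44 ± 0.16 with DMSO (95% interval 0.12 to 0.77, adjusted p = 0.0468) and 0.41 ± 0.15 with TCDD (0.09 to 0.72, adjusted p = 0.0532). The DMSO call did not hold with wild-type DMSO replicate 2 left out (adjusted p = 0.117) or 3 (0.214), without ahrra-null DMSO replicate 10 (0.0602), 11 (0.118) or 12 (0.084), with DESeq2 (0.0614), with a surrogate variable (0.335) and in a fit of only the DMSO libraries (0.0563). TCDD differences were 0.22 ± 0.17 in wild type (adjusted p = 0.82) and 0.18 ± 0.14 in ahrra-null (adjusted p = 0.696). The other gene that the table calls MITF (ENSDARG00000037833) stood at 0.428 to 1.04 CPM and passed no test.

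tyr had the same order of group means as pnp4a. It measured 15.8, 17.5 and 18.6 CPM in wild type with DMSO, 13.8, 15.1 and 12.2 CPM in wild type with TCDD, 19.3, 20.2, 21.2 and 20.9 CPM in ahrra-null with DMSO, and 16.6, 19.8, 16.1 and 19.3 CPM in ahrra-null with TCDD. The wild-type TCDD libraries were the lowest 3 of the 14. The ahrra-null DMSO libraries lay above both wild-type groups, and the ahrra-null TCDD libraries overlapped both DMSO groups. With TCDD tyr was higher in ahrra-null than in wild type by 0.39 ± 0.09 (95% interval 0.20 to 0.58, adjusted p = 0.00288), a call that held in every alternative run. With DMSO the same difference was 0.23 ± 0.09 (0.05 to 0.42, adjusted p = 0.0597), which passed the test only without wild-type DMSO replicate 4 (adjusted p = 0.0344). TCDD differences were −0.34 ± 0.10 in wild type (−0.54 to −0.14, unadjusted p = 0.00194, adjusted p = 0.13) and −0.18 ± 0.08 in ahrra-null (−0.35 to −0.01, adjusted p = 0.412). The wild-type difference passed the test only with a surrogate variable in the model (adjusted p = 0.0267). The interaction for tyr was 0.16 (adjusted p = 0.972).

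dct and tyrp1b, whose products act after tyrosinase, did not pass the test in any comparison. dct measured 160.9, 179 and 206.5 CPM in wild type with DMSO and 169, 155 and 158 CPM with TCDD, and 168, 170.5, 162 and 195 CPM in ahrra-null with DMSO and 153, 160.5, 160 and 183 CPM with TCDD. Its 4 group means lay within 1.13 times of each other, and the groups overlapped. The largest of its differences was with TCDD in wild type, −0.18 ± 0.08 (95% interval −0.36 to −0.01, adjusted p = 0.577).

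tyrp1b measured 314, 341 and 368 CPM in wild type with DMSO and 363, 330.4 and 328 CPM with TCDD, and 334, 352, 346 and 407 CPM in ahrra-null with DMSO and 352, 364, 344 and 385.5 CPM with TCDD. The highest group mean was 1.06 times the lowest. With TCDD in wild type the difference was −0.0032 ± 0.07 (95% interval −0.15 to 0.15, adjusted p = 0.998), an interval that lies above the fall measured for pnp4a. No test compared the 2 genes with each other.

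A second gene that the table names TYRP1 (ENSDARG00000029204) moved where tyrp1b did not. It measured 65.5, 69.1 and 68.3 CPM in wild type with DMSO and 53.9, 54.1 and 52.9 CPM with TCDD, and 80.5, 77.1, 80.9 and 91.95 CPM in ahrra-null with DMSO and 75.9, 81.4, 70.9 and 83.8 CPM with TCDD. Every wild-type library was below every ahrra-null library, as for pnp4a. It was higher in ahrra-null by 0.29 ± 0.06 with DMSO (adjusted p = 0.0022) and by 0.54 ± 0.06 with TCDD (adjusted p = 2.01e-06), and it fell by 0.34 ± 0.07 with TCDD in wild type (adjusted p = 0.0136). This TCDD call did not hold with wild-type DMSO replicate 3 left out (adjusted p = 0.0843) or wild-type TCDD replicate 6 (0.0788), 7 (0.0525) or 8 (0.089) left out. In ahrra-null the TCDD difference was −0.08 ± 0.06 (adjusted p = 0.67), and the interaction was 0.25 ± 0.09 (adjusted p = 0.948). Reads of both copies may have been split between them.

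pmelb, the fibril gene, passed no test and varied most in wild type with DMSO. It measured 95.5, 114 and 144 CPM there, 108, 102.5 and 102 CPM in wild type with TCDD, 106, 113.5, 112 and 127 CPM in ahrra-null with DMSO, and 91.8, 105, 112 and 118 CPM in ahrra-null with TCDD. The wild-type DMSO libraries spanned the values of every other library but ahrra-null TCDD replicate 13, with an SD of 24.7 CPM beside 3.34 CPM in wild type with TCDD. Differences ran from −0.18 ± 0.13 with TCDD in wild type (adjusted p = 0.789) to 0.04 between the lines with TCDD (adjusted p = 0.858). With a surrogate variable in the model pmelb passed the test in 2 comparisons: it was lower with TCDD in wild type (adjusted p = 0.00948) and lower in ahrra-null than in wild type with DMSO (−0.29, adjusted p = 0.000863). dct was lower in the latter too (−0.21, adjusted p = 0.0324). The variable was highest in wild-type DMSO replicates 2 and 3, at 0.608 and 0.311, and −0.24 in replicate 4.

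pmela itself (ENSDARG00000091298) stood at 240.8 to 252 CPM in wild type with DMSO, 201 to 220.4 with TCDD, 241 to 294 in ahrra-null with DMSO and 222 to 272 with TCDD. It was higher in ahrra-null with TCDD (0.23 ± 0.07, adjusted p = 0.0156), a call lost without wild-type TCDD replicate 7 (0.098) or ahrra-null TCDD replicate 16 (0.0678). With DMSO the difference was 0.10 ± 0.07 (adjusted p = 0.346), and the TCDD difference in wild type was −0.20 ± 0.07 (adjusted p = 0.34).

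**Figure D2:**
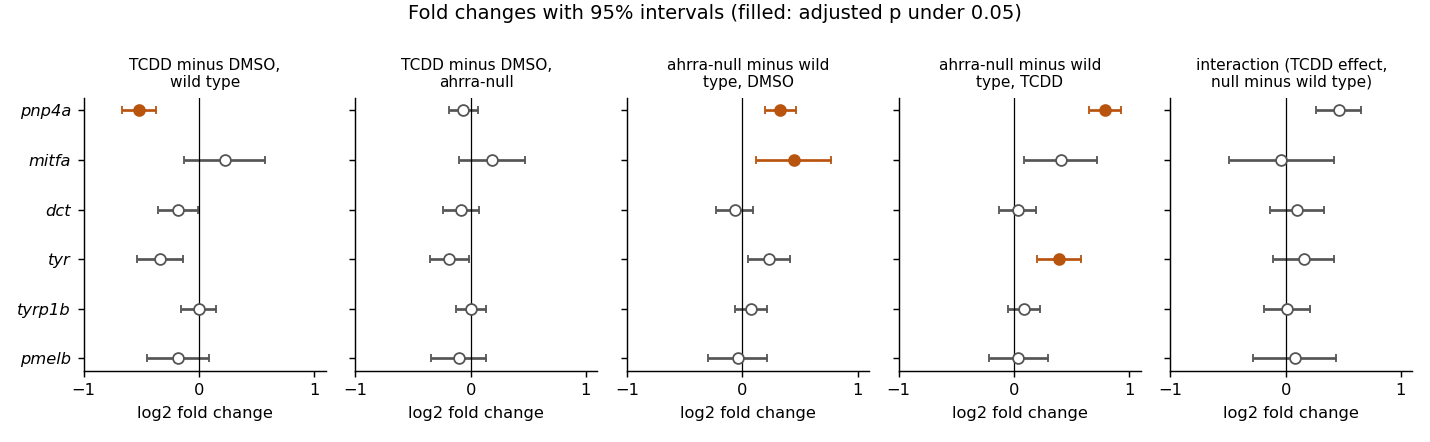
Log2 fold changes of the 6 genes in the 4 pairwise comparisons and the interaction, with 95% intervals from edgeR's quasi-likelihood fit; filled points have a Benjamini-Hochberg adjusted p under 0.05. pnp4a is filled in 3 comparisons (−0.52, 0.33 and 0.79), mitfa in 1 (0.44) and tyr in 1 (0.39), and no point is filled for TCDD in ahrra-null or for the interaction.

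Counted over the 6 genes, TCDD in wild type lowered 1 (pnp4a) and raised none, where 0.856% of all genes tested were called and 0.375% were called lower. In ahrra-null TCDD called 0 of the 6, where 1.18% of all genes were called. Between the lines 2 of 6 were called with DMSO, both higher in ahrra-null (pnp4a and mitfa), against 21.6% of all genes called and 9.91% called higher. With TCDD 2 of 6 were called, again both higher (pnp4a and tyr), against 25.8% called and 12.7% called higher. Groups did not overlap for pnp4a and tyr with TCDD in wild type, both lower, where 6.84% of all genes were lower and 6.64% higher without overlap. With TCDD in ahrra-null all 6 overlapped, where 2.75% of all genes were lower and 3.14% higher without overlap. Between the lines they did not overlap for pnp4a, mitfa and tyr with DMSO (12.9% of all genes higher without overlap and 13.2% lower) and for pnp4a and tyr with TCDD (17.7% and 18.4%). Differences between the lines were thus common among all genes, and the count for the 6 is to be read against that.

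The level of pnp4a relative to the melanin genes of the same library was also described, since this ratio does not depend on library scaling. pnp4a divided by the mean CPM of tyr, dct, tyrp1b and pmelb was 0.267 ± 0.0388 (SD, n = 3) in wild type with DMSO and 0.196 ± 0.00536 (n = 3) with TCDD. It was 0.329 ± 0.0385 (n = 4) and 0.323 ± 0.0199 (n = 4) in ahrra-null. The wild-type TCDD libraries, at 0.19 to 0.2, were below all others, while wild type with DMSO (0.241 to 0.312) overlapped both ahrra-null groups (0.28 to 0.371 and 0.294 to 0.338). The mean of the melanin genes rests mostly on tyrp1b (314.3 to 406.6 CPM) and dct (153.3 to 206.5 CPM). tyr (12.2 to 21.2 CPM), whose group means had the order of pnp4a, adds little to it. The ratio thus says little of pnp4a against tyr.

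Within groups, dct, tyrp1b and pmelb varied together from library to library, and pnp4a did not vary with them. With each group's mean removed, Pearson's r over the 14 libraries was 0.914 for dct and tyrp1b, 0.906 for dct and pmelb and 0.77 for tyrp1b and pmelb. For pnp4a it was −0.085 with dct and 0.157 with tyr. The SD of pnp4a was only 2.19% and 2.23% of the mean with TCDD in wild type and ahrra-null, against 8.56% and 7.57% with DMSO. Its r thus rests mostly on the DMSO libraries and cannot show that pnp4a varies independently. The 14 libraries share groups of embryos and sequencing depth across genes, so these values are given as a description and carry no p. pnp4a and mitfa gave 0.561, which was 0.413 over the 11 libraries outside the wild-type DMSO group.

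The same deviations ran against the levels of several other gene lists. With the list of the retinal pigment epithelium r was −0.673 for tyr, −0.592 for tyrp1b and −0.565 for mitfa. It was −0.547 for pmelb, −0.508 for pnp4a and −0.43 for dct. Without the wild-type DMSO libraries these were −0.608, −0.495, −0.602, −0.421, −0.755 and −0.251 in the same order (n = 11). With all libraries in, the largest negative values of dct, tyrp1b and pmelb were with photoreceptors, which are eye cells. Over the 14 libraries r with the mean log2 level of 11 photoreceptor genes was −0.862 for pmelb, −0.737 for tyrp1b, −0.705 for dct and −0.336 for pnp4a. Without the wild-type DMSO libraries these values were −0.743, −0.63, −0.482 and −0.484 (n = 11), so pnp4a then stood level with dct. The glia list held only 5 genes, of which 4 passed the filter. With it r was −0.776 for pmelb, −0.573 for dct, −0.545 for tyrp1b and −0.512 for pnp4a. Without the wild-type DMSO libraries these glia values were −0.525, −0.218, −0.328 and −0.741. With purine genes r was −0.736 for pmelb and −0.597 for dct, and −0.386 and −0.178 without those libraries. With the iridophore list, which holds pnp4a itself, r was −0.594 for tyrp1b, −0.565 for dct, −0.406 for pmelb and 0.516 for pnp4a. Without the wild-type DMSO libraries these iridophore values were −0.542, −0.522, −0.251 and 0.443. The largest negative value of dct was then with the iridophore list. The summed photoreceptor level was 4917, 3534 and 2143 CPM in wild-type DMSO replicates 2, 3 and 4, the libraries with the lowest, middle and highest pmelb of that group. Any part of eye tissue or of developmental stage in the spread of the melanin genes was not tested.

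**Figure D3:**
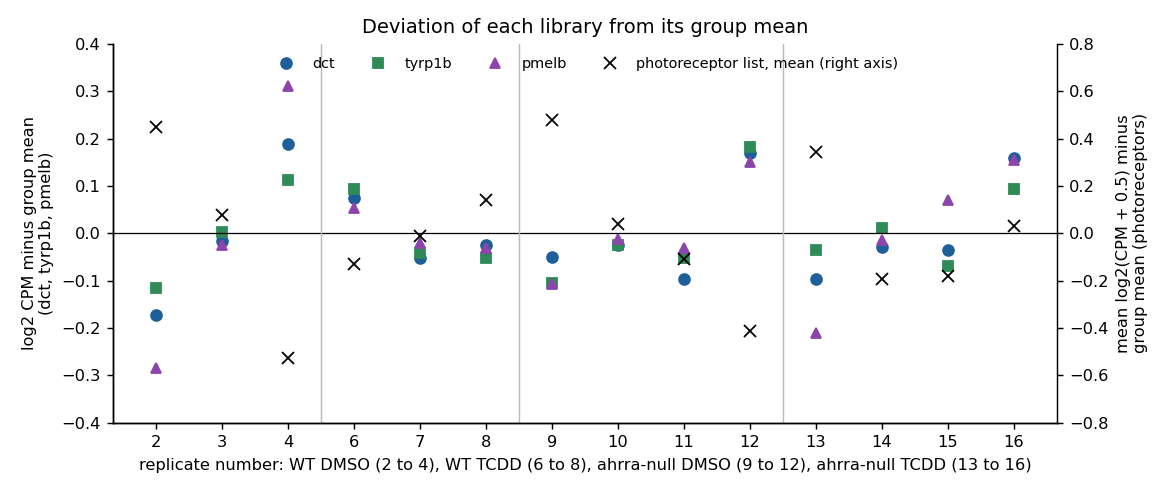
Log2 CPM of dct, tyrp1b and pmelb minus the mean of each library's own group (left axis, coloured points), and the same for the mean of 11 photoreceptor genes (right axis), for the 14 libraries in order of replicate number. The 3 melanin genes vary together and mostly opposite to the photoreceptor genes (r −0.705, −0.737 and −0.862 for dct, tyrp1b and pmelb), though all deviate the same way in replicates 7, 11 and 16.

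Across all 14 libraries the genes whose log2 CPM was most like that of pnp4a, of 15026 ranked, were LPL (r 0.953), rasd1 (0.951), malat1 (0.946), LMOD2 (0.94) and hrc (0.937). With group means removed these values were 0.34, 0.341, 0.109, 0.05 and −0.142, so the likeness lay in the group means. For mitfa the nearest were ACP7 (0.891), ENOPH1 (0.89), PDZRN4 (0.887), IMPACT (0.886) and OGA (0.883), with 0.867, 0.682, 0.72, 0.79 and 0.688 inside groups. The mean of the 4 melanin genes was most like EPB41L3 (0.908), IRX4 (0.905), hoxb1b (0.888), PHF12 (0.87) and CDH2 (0.869). Inside groups these gave 0.899, 0.917, 0.859, 0.816 and 0.896. The likeness of the melanin genes was thus within groups as well.

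The 6 genes were then set in wider lists of pigment genes, described by counts and medians. Between the lines, the shares of all genes to read these counts against are 9.91% higher and 11.7% lower with DMSO (21.6% in all) and 12.7% higher and 13.1% lower with TCDD (25.8% in all). Of 18 tested genes of melanin synthesis and the melanosome, 4 were higher in ahrra-null with DMSO and 0 lower, with a median log2 difference of 0.17 where all genes had −0.01. With TCDD 8 were higher and 0 lower (median 0.23, all genes −0.0028). The melanin genes called were 22.2% of the list with DMSO, close to the 21.6% of all genes, and 44.4% with TCDD. The 4 with DMSO were none of the 6 followed genes: the second TYRP1 gene, OCA2, tspan36 and MLPH. OCA2, a melanosomal transporter, rose from 26.99 ± 1.89 CPM (SD, n = 3) in wild type to 34.1 ± 2.47 (n = 4) in ahrra-null with DMSO (0.33 ± 0.08, adjusted p = 0.00278) and differed by 0.45 ± 0.08 with TCDD (adjusted p = 0.000164).

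tspan36, a tetraspanin, was higher by 0.26 ± 0.06 (adjusted p = 0.0036) and 0.36 ± 0.06 (adjusted p = 0.000106) in the same comparisons. MLPH, melanophilin, which links melanosomes to their motor, was higher by 0.37 ± 0.12 with DMSO (adjusted p = 0.0258) and 0.70 ± 0.12 with TCDD (adjusted p = 0.000101). Its DMSO call needed wild-type DMSO replicate 4 (0.0994 without it) and ahrra-null DMSO replicates 10 (0.0692) and 11 (0.0566). With TCDD in wild type, where 0.375% of all genes were called lower, 1 melanin gene was lower, the second TYRP1 gene. Of the 18 melanin genes, 14 had negative values (median −0.15, all genes −0.0012). Eye markers leaned the same way in this comparison, with 10 of 11 photoreceptor genes negative (median −0.22) and 9 of 13 of the retinal pigment epithelium (median −0.05). Of the latter, rlbp1b alone was called lower (−0.79 ± 0.16, adjusted p = 0.042), a call lost in 5 of 14 alternatives. Which eye cells express each gene of the list was not checked, so rlbp1b is not taken here as a sign of the pigment epithelium. The mean log2 level of the retinal pigment epithelium list was 4.54 to 4.64 with DMSO and 4.36 to 4.41 with TCDD. Photoreceptor levels did not separate: all TCDD libraries (6.22 to 6.49) fell inside the DMSO range (6.03 to 7.01), whose top was replicate 2. Levels of the melanin list overlapped as well (DMSO 4.52 to 4.65, TCDD 4.45 to 4.55). Genes of a list are read from the same libraries, so counts of negative genes are not independent signs. The part of eye markers in the melanin values was not tested. With TCDD in ahrra-null no melanin gene was called (median −0.06, all genes 0.0037), where 1.18% of all genes were called.

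Markers of the retinal pigment epithelium, the other tissue that makes melanin, leaned the other way between the lines. Still, 4 of 13 had positive values with DMSO and 5 with TCDD. The list was drawn up by gene name, and which eye cells express each gene, rlbp1b among them, was not checked. Of 13 tested, 6 were lower and 0 higher in ahrra-null with DMSO (median −0.25), and 5 were lower and 2 higher with TCDD (median −0.24), where 11.7% and 13.1% of all genes were lower. rgrb, a gene of the opsin family, differed by −0.67 ± 0.09 with DMSO (adjusted p = 1.44e-05) and −0.52 ± 0.09 with TCDD (adjusted p = 0.000154). BEST1, a chloride channel of this epithelium, differed by −0.67 ± 0.16 with DMSO (adjusted p = 0.00368) and −0.77 ± 0.18 with TCDD (adjusted p = 0.00268). The summed level of the list was 509.8 to 624 CPM in wild type with DMSO, 434 to 467 with TCDD, 401.5 to 509 in ahrra-null with DMSO and 367 to 409.6 with TCDD. This sum rests most on an RPE65 gene (ENSDARG00000007480), with 2362 to 4595 reads a library. Photoreceptor genes had a median of −0.75 in ahrra-null with DMSO, with 2 of 11 called lower, and −0.25 with TCDD, with 0 called. Both calls, GNAT1 (−0.75, adjusted p = 0.0444) and PDE6C (−1.33, adjusted p = 0.0432), had overlapping groups. Each was lost in 8 of 15 alternatives, among them leaving out wild-type DMSO replicate 2 (GNAT1 −0.48, PDE6C −0.93) or 3, ahrra-null DMSO replicate 10, 11 or 12, and adding a surrogate variable (−0.24 and −0.46). No marker of either list was at 0 in all libraries, and their part in the melanin values was not tested.

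**Figure D4:**
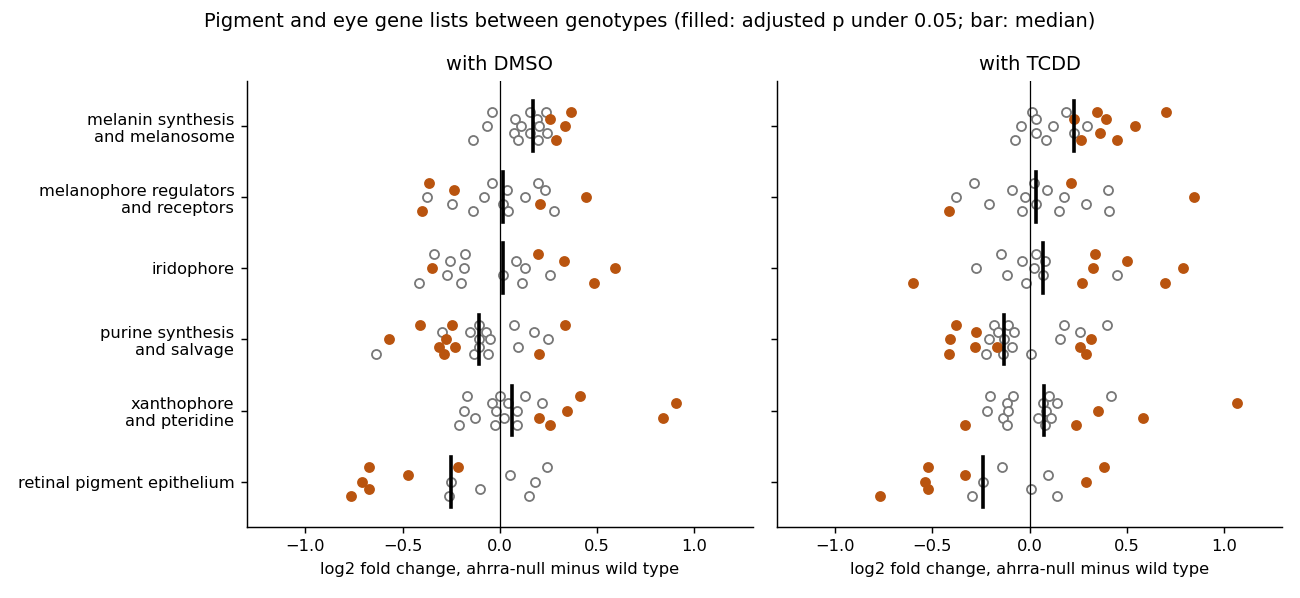
Log2 difference, ahrra-null minus wild type, with DMSO and with TCDD, for each tested gene of 6 lists; each point is a gene and the bar is the list's median. Melanin genes have medians of 0.17 and 0.23, purine genes −0.11 and −0.13, and retinal pigment epithelium genes −0.25 and −0.24; filled points have an adjusted p under 0.05.

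Among the regulators and receptors of melanophores, the list that holds mitfa, calls went both ways. Of 17 tested, 2 were higher and 3 lower in ahrra-null with DMSO (median 0.01), and 2 were higher and 1 lower with TCDD (0.03), which is 29.4% and 17.6% of the list beside 21.6% and 25.8% of all genes. TCDD called none in either line, where it called 0.856% of all genes in wild type and 1.18% in ahrra-null. TRPM7, a channel kinase whose loss costs zebrafish larvae their melanophores, differed by −0.37 ± 0.07 with DMSO (adjusted p = 0.000401) and by −0.41 ± 0.07 with TCDD (adjusted p = 8.64e-05). TFAP2A was higher by 0.21 ± 0.07 under both exposures (adjusted p = 0.0373 and 0.0258), calls lost in 7 and 5 of 15 alternatives. One PAX3 gene (ENSDARG00000028348) was higher with TCDD (0.84 ± 0.26, adjusted p = 0.0201), and another (ENSDARG00000010192) was lower with DMSO (−0.40 ± 0.12, adjusted p = 0.0188). SOX10, which acts upstream of mitfa in the crest, stood at 24.7 to 30.9 CPM over the 14 libraries and was not called. The list of genes for building lysosome-related organelles, the class to which melanosomes belong, had 2 higher and 2 lower of 18 with DMSO and 3 higher and 1 lower with TCDD, 22.2% of the list each time and near the share of all genes. LYST was lower there with TCDD (−0.32 ± 0.06, adjusted p = 0.000475). The 3 higher with TCDD were VPS33A (0.32 ± 0.08, adjusted p = 0.00319), HPS1 (0.30 ± 0.08, adjusted p = 0.00964) and BLOC1S1 (0.32 ± 0.10, adjusted p = 0.0214). Of 6 tested hormone and receptor genes of background adaptation, none was called in any comparison. The shares of all genes called were 21.6% and 25.8% between the lines and 0.856% and 1.18% with TCDD.

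Beside pnp4a, 3 of the other 16 tested iridophore genes were higher and 1 was lower in ahrra-null with DMSO (median −0.08), and 5 were higher and 1 lower with TCDD (median 0.05). That is 25% and 37.5% of these genes beside 21.6% and 25.8% of all genes. The list also holds TJP1, MPV17, FHL2 and FOXO1 genes. Expression of its genes outside iridophores was not checked, so it is no strict set of iridophore markers. defbl1, a defensin-like gene of iridophores, rose from 49.96 ± 3.83 CPM (SD, n = 3) in wild type to 70.02 ± 7.86 (n = 4) in ahrra-null with DMSO (0.49 ± 0.08, adjusted p = 0.000115), and differed by 0.50 ± 0.08 with TCDD (adjusted p = 6.14e-05). TFEC, a relative of MITF needed for iridophores in zebrafish, was higher by 0.59 ± 0.13 (adjusted p = 0.00182) and 0.70 ± 0.13 (adjusted p = 0.000325). Both calls of both genes held in every alternative run. With DMSO 8 of the 16 genes had positive and 8 had negative values. The 1 called lower with DMSO was FOXO1 (ENSDARG00000099555; −0.35 ± 0.09, adjusted p = 0.00592), a call lost in 2 of 15 alternatives.

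The receptor gene ltk, which directs crest cells to the iridophore fate, stood at 9.04 to 11.1 CPM and was not called. With TCDD in wild type, where 0.856% of all genes were called, pnp4a was the only called gene of the 17 on the iridophore list. Of the 17, 15 had negative values (median −0.12, all genes −0.0012). In ahrra-null TCDD raised 1, FOXO1 (ENSDARG00000099555; 0.41 ± 0.08, adjusted p = 0.00881), a call lost without ahrra-null TCDD replicate 13 (0.0574), and the list's median was 0.0041.

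Genes of purine synthesis and salvage, the pathway in which pnp4a acts, had 7 lower and 2 higher of 23 in ahrra-null with DMSO (median −0.11) and 6 lower and 3 higher with TCDD (−0.13). Of all genes 11.7% and 13.1% were lower, and whether the list leans to lower values was not tested. APRT, a salvage enzyme for adenine, differed by −0.57 ± 0.10 with DMSO (adjusted p = 0.00042). IMPDH1 (ENSDARG00000029524), on the branch to guanine nucleotides, was higher by 0.34 ± 0.06 (adjusted p = 0.000571) and 0.32 ± 0.06 (adjusted p = 0.000722). TCDD called 0 of the 23 in either line, where it called 0.856% of all genes in wild type and 1.18% in ahrra-null. These enzymes serve every dividing cell, so the list is no marker of iridophores.

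Of the pigment lists, only that of xanthophores and pteridines held genes that rose with TCDD in wild type. gch2, which opens pteridine synthesis, measured 102, 113 and 125 CPM in wild type with DMSO and 153, 156 and 166 CPM with TCDD. The groups did not overlap, and the rise was 0.48 ± 0.07 (adjusted p = 0.000374). In ahrra-null it stood at 146, 144, 145 and 167.5 CPM with DMSO and 165, 176, 177 and 161 CPM with TCDD, a difference of 0.17 ± 0.06 (adjusted p = 0.24). With DMSO it was higher in ahrra-null than in wild type (0.41 ± 0.07, adjusted p = 0.000131), and the interaction was −0.31 ± 0.09 (adjusted p = 0.876).

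aox5, an oxidase used as a xanthophore marker, rose with TCDD in both lines, by 0.54 ± 0.09 in wild type (adjusted p = 0.00137) and 0.48 ± 0.08 in ahrra-null (adjusted p = 0.000985). It measured 17.9 to 20.0 CPM in wild type with DMSO and 26.3 to 28.6 with TCDD, against 15.6 to 21.2 and 24.7 to 27.2 CPM in ahrra-null. Of 20 tested xanthophore and pteridine genes, 2 were higher and 0 lower with TCDD in each line (medians 0.12 and 0.09, all genes −0.0012 and 0.0037). Of all genes 0.481% were higher with TCDD in wild type and 0.815% in ahrra-null. BCO1, called beside aox5 in ahrra-null, lost its call in 6 of 16 alternatives. Between the lines 6 of the 20 genes were higher and 0 lower with DMSO, and 4 were higher and 1 lower with TCDD. That is 30% and 25% of the list beside 21.6% and 25.8% of all genes. PTS, a later step of pteridine synthesis, was higher in ahrra-null by 0.84 ± 0.12 with DMSO (adjusted p = 0.000169) and 0.58 ± 0.12 with TCDD (adjusted p = 0.00189).

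**Figure D5:**
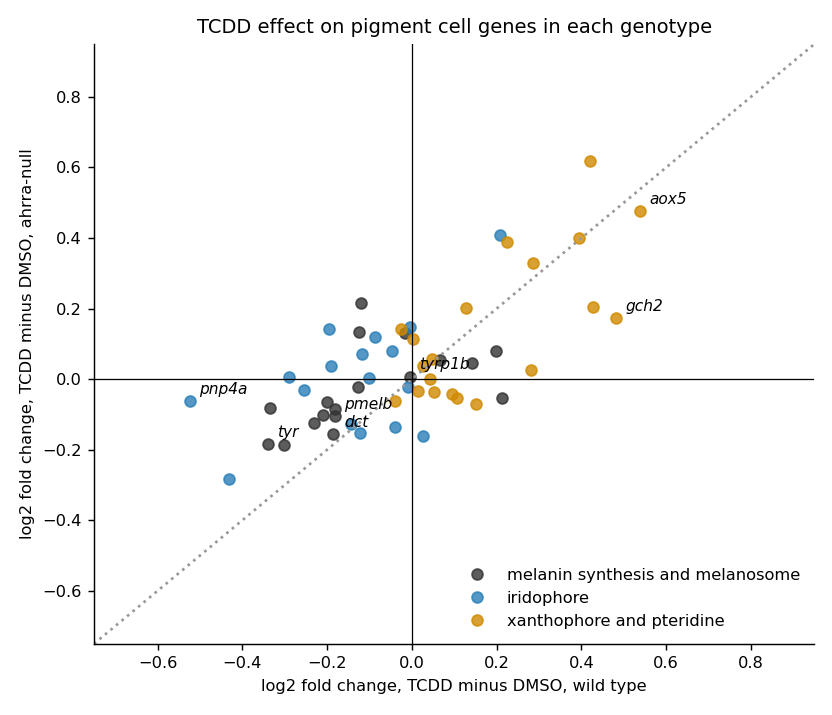
TCDD effect (log2 fold change) in wild type on the horizontal axis against that in ahrra-null on the vertical axis for the tested genes of the melanin, iridophore and xanthophore lists; on the dotted line the effects are equal. pnp4a lies at −0.52 and −0.06, gch2 at 0.48 and 0.17 and aox5 at 0.54 and 0.48, and no gene of these lists passed the interaction test with edgeR.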

How the data were processed

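RNA-seq counts of 14 libraries in 4 groups were used, with groups and replicate numbers from the sample titles. The authors deposited raw read counts, 1 whole number for each Ensembl gene ID. Libraries were unstranded (Illumina TruSeq), per the labels' protocols, so a gene's reads cannot be told apart from those of an antisense or overlapping neighbour. The submitters' processing notes name cutadapt, TopHat2, SAMtools, HTSeq, edgeR and the build GRCz10, with no version or counting setting at hand. Symbols came from a gene table that matched 26269 of 32105 IDs. No genome of that build was used, and no coordinates or sequences are given.

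Genes were kept by edgeR's filterByExpr (minimum count 10), which left 21606 with 99.9% of counts. TMM scaling and a robust quasi-likelihood model over all 14 libraries followed (R 4.3.3, edgeR 4.0.16), with 5 contrasts and Benjamini-Hochberg adjustment over all genes at 0.05. The common biological coefficient of variation was 7.19%. CPM use TMM-scaled library sizes, and log2 CPM for correlations a prior count of 2. The SE is an approximation: the size of the fold change on the log2 scale over the root of F. Replicates of a group were no copies of each other: all 18 pairs differed beyond counting noise (chi-square 2.44 to 17.3 per degree of freedom). The scripts were tested on simulated data.

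The 6 genes and the 11 lists were chosen with earlier results of these data known. Lists held 158 symbols, of which 146 were found, giving 160 IDs. A symbol absent from the table was looked up without its paralog letter, so some IDs may be paralogs of the gene meant. Named are the 6 genes, their paralogs and, from each list and contrast, up to 4 called genes with the smallest adjusted p, 54 genes in all, of which the text gives those that bear on the 6. ltk and SOX10 were added after their values were seen. The 5 genes most like each profile were ranked by Pearson's r among genes whose mean log2 CPM was 1 or more. Alternatives were other scalings and filters, DESeq2 1.42.0, limma voom 3.58.1 with quality weights, a surrogate variable (sva 3.50.0), a fit of only the groups compared, and each library left out in turn. The correlations without the wild-type DMSO libraries were added after seeing the data.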

Additional observations from a re-analysis of the deposited data

Results flagged for a closer look

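Of 108 groups of 4 libraries tested, 8 held a library far from the other 3 (Dixon's test), and chance gives about 1 in 20. None involved the 6 pigment genes. Only the ahrra-null groups have 4 libraries, so the wild-type groups, with 3 each, were not tested in this way. In ahrra-null TCDD replicate 15, CYP1A1 (465.4 CPM, the others 1057 to 1103), cyp1c1 (215.7 CPM) and cyp1c2 (39.94 CPM) were the lowest of their group, as was rgrb of the retinal pigment epithelium list (34.01 CPM). In ahrra-null DMSO replicate 12, gch2 (167.5 CPM) and BLOC1S1 (9.657 CPM) were the highest. Among purine genes, ADSS2 was lowest in ahrra-null TCDD replicate 16 (31.31 CPM) and PAICS highest in replicate 13 (68.3 CPM).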

How the results depend on the processing

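No paired analysis was possible because the groups share no replicate number. No log2 fold change reversed its sign where called. Leaving out each library in turn, genes called ranged from 82 to 388 for TCDD in wild type, 141 to 374 for TCDD in ahrra-null, 2844 to 5019 between the lines with DMSO and 0 to 10 for the interaction. A surrogate variable gave 368 and 396 genes for TCDD in wild type and in ahrra-null, voom gave 381 in wild type, and for the interaction DESeq2 gave 8 and voom 6. Of the 6 pigment genes, with the surrogate variable 3 were called for TCDD in wild type, and DESeq2 called 1 for the interaction. Between the lines with DMSO, DESeq2 called 1, a fit of only the DMSO groups called 1, and leaving out each library gave 1 to 3. mitfa between the lines with DMSO was 0.27 with a surrogate variable, 0.45 with DESeq2, 0.44 in the DMSO groups alone and 0.33 to 0.58 with each library left out, and the cause of these losses was not tested. pnp4a kept its calls throughout: −0.60 to −0.47 for TCDD in wild type, 0.26 to 0.40 and 0.77 to 0.81 between the lines with DMSO and TCDD, as did tyr with TCDD (0.32 to 0.46). mitfa between the lines with TCDD passed the test in 4 of 15 alternatives. mitfa had the fewest reads of the 6 genes, 62 to 132 a library, and the part of depth in its spread was not tested.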
